A study of Mus musculus with 10 samples.

Results

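The crystallins described here are 10 mouse genes, *Cryaa*, *Cryab*, *Cryba1*, *Cryba2*, *Cryba4*, *Crybb1*, *Crybb2*, *Crybb3*, *Crygs* and *Crym*, taken by symbol from the 53974 genes of an RNA-seq table, together with the ATAC-seq regions that lie within 1000 bp of an end of one of them. All 10 had a row, and 1 of the 16600 compared regions met the second criterion, at *Crym*. This rule reads symbols and positions, not measured values. The libraries came from retinal cells of C57BL/6 mice aged 8 to 10 weeks that carried floxed *Arid1a* (*Arid1a* fl/fl), a subunit of the SWI/SNF chromatin remodelling complex. Every animal received AAV2 in the vitreous and, 2 weeks later, an optic nerve crush (ONC), and cells were collected 3 days after the crush. The virus carried GFP in the group labelled WT (genotype *Arid1a* fl/fl) and Cre in the group labelled cKO (genotype *Arid1a* del/del), both under a CMV promoter, which is not specific to a cell type. RNA-seq has 3 libraries per label and ATAC-seq has 2 per label, each from several pooled retinas, so p-values measure the spread between pooled samples. Every group was injured, so the comparison is between viruses after injury, and no level in an uninjured retina is given.

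The crystallins were first known as the proteins that fill the lens, and several are also made in retina and brain. The alpha crystallins *Cryaa* and *Cryab* are small heat shock proteins that hold unfolding proteins in solution. The beta and gamma crystallins are compact structural proteins of the lens that share a domain fold, and crystallin RNA is known to vary in the retina after injury. *Crym*, mu crystallin, is unrelated to them: it binds thyroid hormone with the help of NADPH and acts as a ketimine reductase.

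Cells were sorted as negative for DAPI and positive for Thy1.2, a surface protein of retinal ganglion cells (RGCs) that T cells also carry. RGC markers were present unevenly. The 14 markers listed for RGCs summed to between 189 and 292 TPM, led by *Thy1* itself, the gene of the sorted protein (52.0 to 128.9 TPM), and by *Isl1* (51.9 to 104 TPM), a factor that other retinal neurons also make. *Pou4f2*, a factor of RGCs, was listed at 0 in 5 libraries and at 0.143 TPM in cKO replicate 3, and *Rbpms* lay between 1.82 and 6.43 TPM, while a list of 14 rod markers summed to between 15660 and 60150 TPM. TPM is a share of a library's transcripts scaled for transcript length, and it keeps no depth, so the precision that counting gives to each value is unknown. *Arid1a*, the targeted gene, was at 18.8, 11.7 and 14.2 TPM in WT replicates 1, 2 and 3 and at 18.8, 27.9 and 25.0 TPM in the cKO replicates (log2 fold change 0.66, adjusted p = 0.274 from limma). Since *Arid1a* RNA was not lower under the label cKO, the libraries are named by their labels throughout, and each direction rests on those labels. Fewer cells of a type and less RNA per cell cannot be told apart in these sorted bulk samples.

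The sequences before the starts of the members show which known promoter letters they hold. RefSeq's mouse table (GRCm38.p6) held the 250 bases before the start of 8 of the 10 members; *Cryab* and *Crym* had no entry. The 5 printed first belong to the genes whose RNA levels varied together from library to library, described next. They are read on the strand of the gene, 5′ to 3′, and capitals mark TATAAA, the letters of a TATA box, and TGCTGA, the half-site bound by Maf factors, on either strand (TCAGCA is the half-site on the other strand). No base can belong to both motifs. The stretches are chr17:31677681-31677930 (plus strand) for *Cryaa*, chr11:77725294-77725543 (minus) for *Cryba1*, chr1:74893144-74893393 (minus) for *Cryba2*, chr5:113070118-113070367 (minus) for *Crybb2* and chr16:22811411-22811660 (minus) for *Crygs*.
Cryaa: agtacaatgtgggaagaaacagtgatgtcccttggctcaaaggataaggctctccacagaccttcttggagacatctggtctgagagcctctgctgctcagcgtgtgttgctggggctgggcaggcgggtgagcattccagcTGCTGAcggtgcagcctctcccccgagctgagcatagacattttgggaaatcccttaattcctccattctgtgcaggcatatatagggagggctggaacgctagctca
Cryba1: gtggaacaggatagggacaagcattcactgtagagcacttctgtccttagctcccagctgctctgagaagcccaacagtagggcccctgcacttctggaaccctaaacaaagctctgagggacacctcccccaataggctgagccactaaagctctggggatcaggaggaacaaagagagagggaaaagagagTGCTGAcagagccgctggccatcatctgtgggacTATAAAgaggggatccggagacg
Cryba2: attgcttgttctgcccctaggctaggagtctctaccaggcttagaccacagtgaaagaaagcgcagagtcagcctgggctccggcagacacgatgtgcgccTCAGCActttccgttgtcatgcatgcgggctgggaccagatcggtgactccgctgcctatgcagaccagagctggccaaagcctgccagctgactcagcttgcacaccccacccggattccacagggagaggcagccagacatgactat
Crybb2: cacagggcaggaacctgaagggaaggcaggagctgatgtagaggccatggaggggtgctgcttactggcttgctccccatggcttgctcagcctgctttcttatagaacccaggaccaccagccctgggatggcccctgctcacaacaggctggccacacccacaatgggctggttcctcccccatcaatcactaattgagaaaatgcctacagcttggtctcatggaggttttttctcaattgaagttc
Crygs: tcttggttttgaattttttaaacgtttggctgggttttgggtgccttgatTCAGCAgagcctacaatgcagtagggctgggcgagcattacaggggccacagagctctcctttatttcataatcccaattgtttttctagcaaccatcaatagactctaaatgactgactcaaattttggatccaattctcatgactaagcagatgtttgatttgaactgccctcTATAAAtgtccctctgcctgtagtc

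The half-site TGCTGA, searched on both strands, lay in 7 of the 8 stretches (87.5%), all but that of *Crybb2*, and in 16.1% of the 32841 RefSeq promoters searched over the same length. In *Cryaa* it began 108 bases before the start, in *Cryba1* 57 bases and in *Cryba2* 149 bases, while *Cryba4* held 3 copies. TATAAA, also on both strands, lay in 3 of the 8, at 23 bases before the start of *Cryba1*, 30 before that of *Crybb1* and 25 before that of *Crygs*, and in 12.4% of all promoters. GAANNTTC, the core of a heat shock element, which reads the same on both strands, was in 0 of the 8 and in 6.7% of all promoters. These are matches of letters in a short window and no measure of binding.

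*Cryaa*, *Cryba1*, *Cryba2*, *Crybb2* and *Crygs* followed the same pattern over the 6 RNA-seq libraries, and it did not follow the labels. *Cryaa* was at 25.8, 2.43 and 0 TPM in WT replicates 1, 2 and 3 and at 22.7, 76.8 and 0 TPM in cKO replicates 1, 2 and 3. *Cryba1*, the beta crystallin that is also known from astrocytes and retinal pigment epithelium, was at 45.3, 1.86 and 0 TPM and at 39.8, 124 and 0.117 TPM in the same order. Both were thus high in WT replicate 1 and cKO replicates 1 and 2 and at 2.43 TPM or less in the other 3 libraries, so the labels overlapped. Genes above 0 numbered 24963, 20942 and 24348 in the WT replicates and 24940, 24586 and 23764 in the cKO replicates. The libraries with high *Cryaa* thus also listed the most genes above 0. By genes at 1 TPM or more the order differed, with 17520 in cKO replicate 3 and 17295 in WT replicate 1. The part of detection in this pattern was not tested.

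The members at lower levels were high in the same libraries as *Cryaa* and *Cryba1*. *Cryba2* was listed at 1.24, 0 and 0 TPM under WT and at 2.0, 4.42 and 0 TPM under cKO. *Crybb2*, a major beta crystallin of the lens that is also made in the retina, was listed at 1.68, 0 and 0 TPM and at 1.39, 3.32 and 0 TPM. *Crygs*, the gamma crystallin of adult lens fibres, was listed at 2.05, 0 and 0 TPM and at 1.38, 4.50 and 0 TPM. The highest value of all 5 genes was in cKO replicate 2, and for *Cryaa*, *Cryba1*, *Crybb2* and *Crygs* the next was in WT replicate 1.

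**Figure D1:**
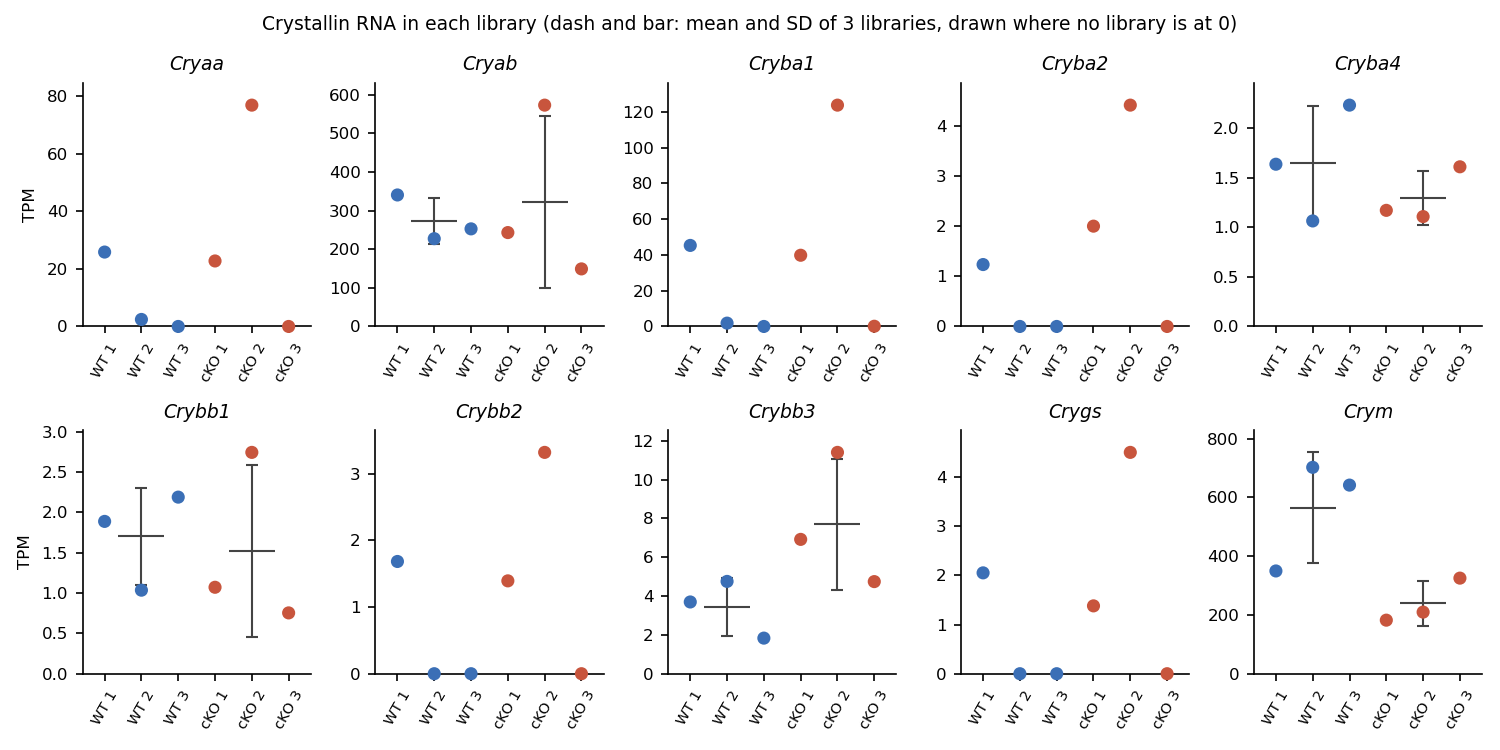
TPM (y axis, from 0, a scale of its own in each panel) of each crystallin in the 3 libraries labelled WT (blue) and the 3 labelled cKO (red), with the mean and SD of each label where no library is at 0. *Cryaa*, *Cryba1*, *Cryba2*, *Crybb2* and *Crygs* have their 3 highest values in WT 1, cKO 1 and cKO 2 and lie at 0 to 2.43 TPM elsewhere, while *Crym* is lower in every library labelled cKO than in any labelled WT.

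Within the 3 libraries where *Cryaa* was high, *Cryba1* stood in nearly fixed proportion to it, and the other members with this pattern did so less closely. *Cryba1* was 1.76 times *Cryaa* in WT replicate 1, 1.75 times in cKO replicate 1 and 1.61 times in cKO replicate 2, over a range of *Cryaa* from 22.7 to 76.8 TPM. In WT replicate 2, where both were low, the ratio was 0.764. The ratio of *Crygs* to *Cryaa* was 0.0794, 0.0607 and 0.0586 in those 3 libraries and that of *Crybb2* was 0.0653, 0.0614 and 0.0433. *Cryba2* kept the proportion least closely, since its ratio to *Cryaa* was lower in WT replicate 1 (0.0479) than in cKO replicate 1 (0.0882).

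Some crystallin genes outside the 10, the gamma crystallins *Crygd*, *Crygb* and *Crygc*, had the same pattern. *Crygd*, a gamma crystallin of lens fibres, was listed at 106, 0 and 0 TPM under WT and at 97.9, 270.2 and 0 TPM under cKO, above every beta and gamma member in those libraries, and its ratio to *Cryaa* was 4.11, 4.31 and 3.52 in the 3 libraries that held it. *Crygb* (highest value 8.14 TPM) and *Crygc* (5.78 TPM) also had their 3 highest values in those libraries. The ratio of *Crygb* to *Cryaa* was 0.115 in WT replicate 1, 0.1075 in cKO replicate 1 and 0.106 in cKO replicate 2, as nearly fixed as that of *Cryba1*. Of a list of 12 lens markers, *Mip*, the water channel of lens fibres, had the same order, at 1.68, 0.117 and 0 TPM under WT and at 1.31, 4.03 and 0 TPM under cKO. *Crygn* did not follow it, at 2.84, 0 and 0 TPM under WT and 0, 0.299 and 0 TPM under cKO. *Mip*, *Crygb*, *Crygc* and *Crygn* were chosen after their values were seen. The 2 lens markers with the most RNA had other orders. *Lenep* was listed at 0, 4.09 and 3.90 TPM under WT and at 5.49, 8.11 and 5.63 TPM under cKO, and *Bfsp2*, a gene for a lens filament protein, at 2.08, 3.43 and 2.90 TPM and at 0.976, 0.494 and 1.78 TPM. *Lgsn* and *Dnase2b* were listed at 0 in all 6 libraries, and 8 of the 12 markers stayed under 1 TPM in every library. The lens list summed to 5.55, 8.68 and 7.75 TPM under WT and to 9.24, 13.9 and 8.72 TPM under cKO. Its sum was lowest in WT replicate 1, a library with high *Cryaa*. That low sum rests largely on *Lenep*, listed at 0 there and at 3.90 TPM or more in every other library. Of the 3 lens markers tested, 1, *Bfsp2*, was lower under cKO at an unadjusted p under 0.05 with limma.

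Some of the marker lists differed between the same libraries. The 12 Mueller glia markers summed to 16350 TPM in WT replicate 1, 12800 in cKO replicate 1 and 13270 in cKO replicate 2, where the 5 crystallins of this pattern were high, and to 26730, 30490 and 28570 TPM in WT replicates 2 and 3 and cKO replicate 3. The 5 astrocyte markers summed to 95, 58.6 and 51.9 TPM in the first 3 and to between 111 and 204.8 TPM in the rest, and the 10 markers of endothelial cells and pericytes to between 354 and 479 TPM and between 806 and 1118 TPM. The markers of retinal pigment epithelium, a tissue that lies against the retina, summed to between 11.9 and 14.5 TPM and between 22.5 and 32.2 TPM. All 4 sums were thus lower where those crystallins were high, but the sums rest on a few abundant genes. These 4 lists were picked after the sums were seen, and no other marker list split the libraries in this way. The bipolar cell list, for example, was lowest in WT replicate 1 (913 TPM) and highest in cKO replicate 2 (1902 TPM). Single markers had other orders: *Gfap* was higher in WT replicate 1 (63.0 TPM) than in cKO replicate 3 (37.5 TPM), *Pecam1* higher in WT replicate 1 (6.87 TPM) than in WT replicate 2 (1.16 TPM), and 6 of the 8 pigment epithelium markers stayed under 1 TPM, with *Rdh5* at 9.28 to 28.1 TPM carrying that sum. The part of these cell types, or of lens RNA, in the crystallin pattern was not tested.

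**Figure D2:**
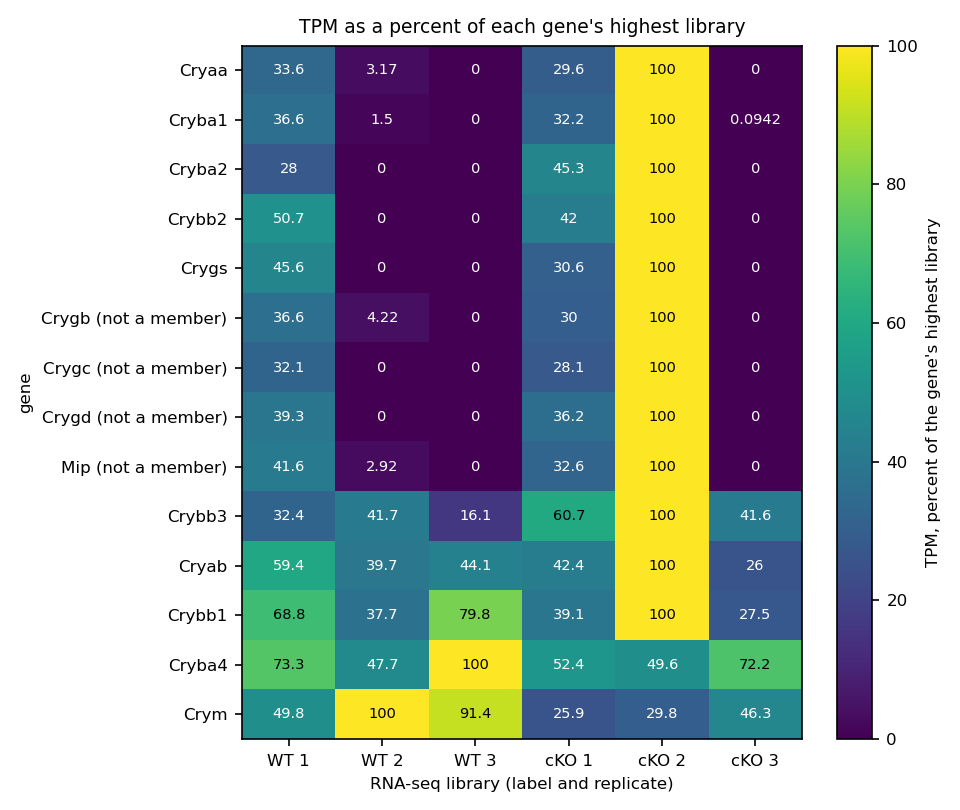
TPM of each gene in each library (columns) as a percent of that gene's highest library, with the percent printed in each cell and in colour (0 to 100). The upper 9 genes, of which 5 are members, peak in cKO 2, hold 28% to 50.7% of that level in WT 1 and cKO 1 and at most 4.22% in the other 3 libraries; *Crym* peaks in WT 2.

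*Cryab*, alpha B crystallin, differed in level from its relative *Cryaa*: it was abundant in every library. It stood at 341, 227 and 253 TPM under WT (274 ± 59.4, SD, n = 3) and at 243, 573 and 149 TPM under cKO (322 ± 223, SD, n = 3). Its order over the libraries was partly that of *Cryaa* (Pearson's r = 0.814 on the log2 scale). Both were highest in cKO replicate 2 and next in WT replicate 1. The third of *Cryab* was WT replicate 3, where *Cryaa* was listed at 0. The lowest and the highest value were both labelled cKO, and the labels overlapped. The log2 fold change was 0.03 (standard error 0.48, 95% interval −1.10 to 1.16, adjusted p = 0.981 from limma), so a difference inside that interval was not detectable with 3 libraries a label. *Cryab* was 13.2, 10.7 and 7.47 times *Cryaa* in the libraries with high *Cryaa* and 93.5 times in WT replicate 2. Its sign turned with 1 library left out, being −0.50 without cKO replicate 2, −0.09 without WT replicate 2 and −0.02 without WT replicate 3. *Hspb2*, a small heat shock protein gene next to *Cryab*, was at 2.95, 12.9 and 6.62 TPM under WT and at 2.06, 1.22 and 5.71 TPM under cKO, an order unlike that of *Cryab*. In the gene table *Cryab* spans *Hspb2*, and *Crygs* and *Cryba4* overlap other genes, so reads in the shared stretches may have been split between them by the authors' quantification.

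The remaining beta crystallins were low and present in nearly every library. *Crybb3* was at 3.69, 4.75 and 1.83 TPM under WT (3.43 ± 1.48, SD, n = 3) and at 6.92, 11.4 and 4.74 TPM under cKO (7.69 ± 3.39, SD, n = 3). The labels overlapped narrowly, WT replicate 2 lying just above cKO replicate 3. The log2 fold change was 0.96 (standard error 0.41, 95% interval −0.02 to 1.94, unadjusted p = 0.0529, adjusted p = 0.278 from limma). *Crybb3* did not fall to 0 where *Cryaa* did, and its lowest library, WT replicate 3, was at 16.1% of its highest.

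*Cryba4* and *Crybb1*, which lie side by side and overlap on chromosome 5, did not share the pattern of *Cryaa*. *Cryba4* was at 1.64, 1.07 and 2.24 TPM under WT and at 1.17, 1.11 and 1.61 TPM under cKO, with its highest value in WT replicate 3, where *Cryaa* was listed at 0. *Crybb1* was at 1.89, 1.04 and 2.19 TPM under WT and at 1.07, 2.74 and 0.754 TPM under cKO. The lowest library of *Cryba4* held 47.7% of its highest and that of *Crybb1* 27.5%, and the labels overlapped in both (adjusted p = 0.764 and 0.858 from limma, log2 fold changes −0.19 and −0.15).

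*Crym* was the member with the most RNA, and it alone separated the labels. It stood at 349.8, 703 and 642 TPM under WT (565 ± 189, SD, n = 3) and at 182, 209.7 and 325 TPM under cKO (239 ± 76.0, SD, n = 3). Every cKO value lay below every WT value, the nearest pair being cKO replicate 3 and WT replicate 1. The log2 fold change was −1.22 (standard error 0.35, 95% interval −2.05 to −0.39, unadjusted p = 0.0102), and it did not pass after adjustment over all 17555 genes tested (adjusted p = 0.157 from limma). Among all genes tested, 7.18% had every cKO library below every WT library. With an exact two-sided permutation test p was 0.1, the smallest that 3 libraries against 3 can give.

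Leaving out each library in turn gave *Crym* log2 fold changes from −1.53 to −1.03, with the sign fixed by labels that do not overlap. The log2 ratio of *Crym* to *Cryab* was 0.04, 1.62 and 1.34 in the WT libraries and −0.41, −1.45 and 1.12 in the cKO libraries, a difference of −1.25 that did not pass (exact two-sided permutation test, p = 0.2).

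Marker lists also differed between the labels. All 14 rod markers were higher under cKO at an unadjusted p under 0.05 and summed to between 15660 and 21840 TPM under WT and between 32740 and 60150 TPM under cKO. Of 7 T cell markers 6 were lower, with sums of 231 to 659 TPM under WT and 63.0 to 147 TPM under cKO, and of 10 markers of microglia and macrophages 4 were lower, with sums of 2294 to 3548 TPM and 975 to 1327 TPM. All 12 Mueller glia markers had a negative log2 fold change, and 2 of them were lower at that p. No marker passed after adjustment. At an unadjusted p under 0.05, 11.9% of all genes tested were higher and 6.45% lower, shares that stand beside the counts of every list. The part of the marker differences in that of *Crym* was not tested.

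Of the 10 members, all of which had at least 1 TPM in at least 3 of the 6 libraries and were tested, 0 passed at an adjusted p under 0.05 with limma, where 0.0057% of all genes tested were higher under cKO and 0.0% lower. At an unadjusted p under 0.05 the count was 1 lower, *Crym*, beside 6.45% of all genes, and 0 higher beside 11.9%. Taking the replicate number as a block in limma moved that count to 2, with *Crybb3* (adjusted p = 0.134) joining *Crym* (adjusted p = 0.0883). Without WT replicate 2 it was also 2, with *Crybb3*, and without cKO replicate 3, a library in which *Cryba1* was near 0 and *Cryba2* was listed at 0, it was 4, with *Cryba1*, *Cryba2* and *Crybb3* higher. In these 3 settings 21.9%, 19.6% and 20.4% of all genes tested passed at that p. The median log2 fold change of the 10 was 0.67. *Cryaa*, *Cryba1*, *Cryba2*, *Crybb2* and *Crygs* shared a pattern over the libraries, so they are not separate values in it. The median of all genes tested was 0.16, which scaling by the median of ratios moved to 0.01. That scaling also turned the balance over all genes at an unadjusted p under 0.05, to 7.62% higher and 9.54% lower. Scaled in this way, *Crym* was at −1.39 and *Crybb3* at 0.82. *Crym* was the only member whose labels did not overlap, and no member had every cKO library above every WT library, as 18.7% of all genes tested did.

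**Figure D3:**
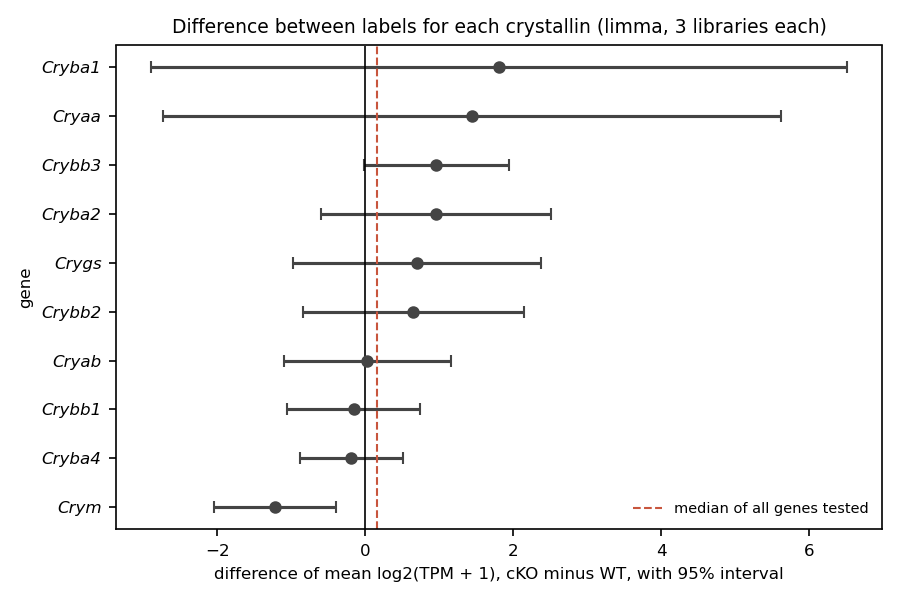
Difference of mean log2(TPM + 1), cKO minus WT, for each crystallin (points) with its 95% interval from limma (bars), against 0 (solid line) and the median of all genes tested, 0.16 (dashed line). The intervals of *Cryba1* and *Cryaa* run from −2.90 to 6.51 and from −2.73 to 5.61, and the interval of *Crym*, −2.05 to −0.39, is the only one that leaves out 0.

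The genes that followed this pattern had differences with wide errors. The log2 fold change was 1.44 (standard error 1.77) for *Cryaa*, 1.81 (1.99) for *Cryba1*, 0.95 (0.66) for *Cryba2*, 0.65 (0.63) for *Crybb2* and 0.70 (0.71) for *Crygs*, with adjusted p-values from 0.476 to 0.694 from limma. Leaving out 1 library moved them widely, from 0.11 to 3.25 for *Cryaa*, 0.41 to 3.81 for *Cryba1*, 0.41 to 1.63 for *Cryba2*, 0.15 to 1.21 for *Crybb2* and 0.089 to 1.32 for *Crygs*, with the lowest without cKO replicate 2 and the highest without cKO replicate 3. A pseudocount of 0.1 gave 2.05 for *Cryba2*, 1.61 for *Crybb2* and 1.66 for *Crygs*. All values are on the scale of log2(TPM + 1), which understates changes of genes near 1 TPM.

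By median over the 6 libraries the order of TPM levels was *Crym* (338), *Cryab* (248), *Cryba1* (20.8), *Cryaa* (12.6), *Crybb3* (4.75), *Crybb1* (1.48), *Cryba4* (1.39), *Crybb2* (0.697), *Crygs* (0.690) and *Cryba2* (0.619). Only *Cryab* and *Cryba1* were neighbours whose ranges did not overlap, with 149 TPM the lowest value of *Cryab* and 124 TPM the highest of *Cryba1*. *Crym* was above *Cryab* in 4 libraries and below it in cKO replicates 1 and 2.

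The other crystallin-named genes, a list of 14 that includes enzymes and proteins with related domains, had 9 members tested. At an unadjusted p under 0.05, 1 was lower, *Crybg1*, a gene for an actin-binding protein with beta-gamma crystallin domains, at 7.06, 2.95 and 3.69 TPM under WT and 2.26, 0.805 and 0.852 TPM under cKO (log2 fold change −1.26, adjusted p = 0.18 from limma). The zeta crystallin *Cryz*, a quinone reductase, was at 51.0 to 60.1 TPM under WT and 58.0 to 84.2 TPM under cKO, and *Cryzl1*, of the same family, at 88.4 to 117 and 97.4 to 124 TPM. *Cryga* was listed at 0 in all libraries, and *Cryz*, *Cryzl1*, *Cryzl2*, *Cryl1*, *Crybg1*, *Crybg2* and *Crybg3* were above 0 in all. With the replicate block the count was 2 lower, with *Cryzl2*, where 8.52% of all genes tested were lower.

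Among 7 small heat shock proteins, 4 were tested and 1 was higher at an unadjusted p under 0.05, *Hspb6*, at 56.7, 71.5 and 78.8 TPM under WT and 82.4, 119.8 and 126.6 TPM under cKO (log2 fold change 0.65, adjusted p = 0.239 from limma). *Hspb1*, a stress-induced chaperone, was at 13.6 to 17.3 TPM under WT and 9.85 to 20.1 TPM under cKO. Neither was listed at 0 in any library, unlike *Cryaa*, to which they are related.

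Transcription factors that act on crystallin genes in the lens were mostly measurable. Of 13 listed, 10 were tested and 3 were higher under cKO at an unadjusted p under 0.05: *Pax6*, a master regulator of eye development (212 ± 21.6 and 383 ± 90.2 TPM, SD, n = 3 each, adjusted p = 0.153 from limma), *Prox1* and *Mafg*. *Prox1* was at 45.2 to 73.2 TPM under WT and 85.2 to 106 TPM under cKO and *Mafg* at 10.5 to 20.9 and 21.9 to 30.8 TPM. *Hsf1*, the heat shock factor, was at 49.3 to 82.0 and 61.8 to 83.5 TPM, and the lens factor *Pitx3* was listed at 0 in all libraries. *Maf*, whose half-site was searched above, was at 28.1, 10.2 and 32.0 TPM under WT and at 20.9, 12.5 and 17.2 TPM under cKO, an order unlike that of *Cryaa*.

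For *Crym*, the pathway list was thyroid hormone handling, with 13 of 14 genes tested. At an unadjusted p under 0.05, 1 was higher, the receptor *Thrb*, at 17.3, 25.7 and 37.7 TPM under WT and 45.1, 46.2 and 66.7 TPM under cKO (log2 fold change 0.99, adjusted p = 0.192 from limma), and 0 were lower. The receptor *Thra* (54.3 to 198 TPM over the 6 libraries) and the co-repressor *Ncor1* (79.5 to 107 TPM) overlapped between the labels. The median log2 fold change of the list was 0.08, beside 0.16 for all genes tested.

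Genes whose log2 level over the 6 libraries was most like that of *Crym* were *Kcne1l* (r = 0.998), *Egr1* (0.995), *Cela1* (0.995), *Enpp6* (0.993) and *Dazap2* (0.992). *Egr1*, an immediate early gene, was at 406, 623 and 631 TPM under WT and 235, 282 and 384 TPM under cKO. Most like the summed level of the 9 alpha, beta and gamma members were *Bcap31* (0.993), *Slc25a51* (0.987), *Gm37303* (0.983), *Tmem258* (0.981) and *Mtif3* (0.978). These are the highest of 17555 values of Pearson's r over 6 libraries and are given as a description; the sum is carried mainly by *Cryab*, with 149 to 573 of its 156 to 801 TPM.

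ATAC-seq gives the accessible chromatin at the crystallin genes. The compared region at *Crym*, chr7:120201385-120202078 on GRCm38, covers the end of the gene with the higher coordinate (the gene lies at chr7:120186380-120201989). The authors' group value there, the log2 of mean normalized reads, was 4.04 for WT and 2.76 for cKO, or 16.4 and 6.77 reads, a difference of −1.28. It is 1 of the 9924 regions (59.8%) that were lower by 1 or more under cKO. Of all regions 55.1% had a lower difference than this one, and the median was −1.57, so the region at *Crym* was close to the middle of all regions. Each label has 1 value per region, so no replicate check could be made here.

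A peak overlapped that region in WT replicates 1 and 2, covering 66.0% and 88.9% of it, and in neither cKO library. A second region inside *Crym*, chr7:120192505-120193084, which is more than 1000 bp from either end, held 3.80 and 2.15 on the same scale and was overlapped by peaks in both WT libraries and in neither cKO library, although cKO replicate 2 had a peak beside it, at chr7:120192021-120192354. The only other region in or within 3000 bp of a member was chr5:112258881-112259379, which lies in both *Cryba4* and *Crybb1*. There the value was higher under cKO, 2.89 for WT and 3.39 for cKO, with peaks in WT replicate 2 and cKO replicate 1, and 86.0% of all regions had a lower difference. No region lay in or near *Cryaa*, *Cryba1*, *Cryba2*, *Crybb2* or *Crygs*.

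Per library, the members with a peak within 1000 bp of an end were *Cryba4*, *Crybb2*, *Crybb3* and *Crym* in WT replicate 1, *Cryab*, *Crybb3* and *Crym* in WT replicate 2, none in cKO replicate 1 and *Crybb3* in cKO replicate 2. Among 21900 protein-coding genes the share with such a peak was 49.3%, 42.8%, 12.4% and 12.8% in the same order, against 4, 3, 0 and 1 of the 10 members. A compared region lay within 1000 bp of an end of 37.2% of these genes and of 1 member of 10. *Cryba1* had no peak in or within 3000 bp of it in any library. The ATAC-seq libraries are other samples than the RNA-seq libraries, and replicate numbers do not link them.

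**Figure D4:**
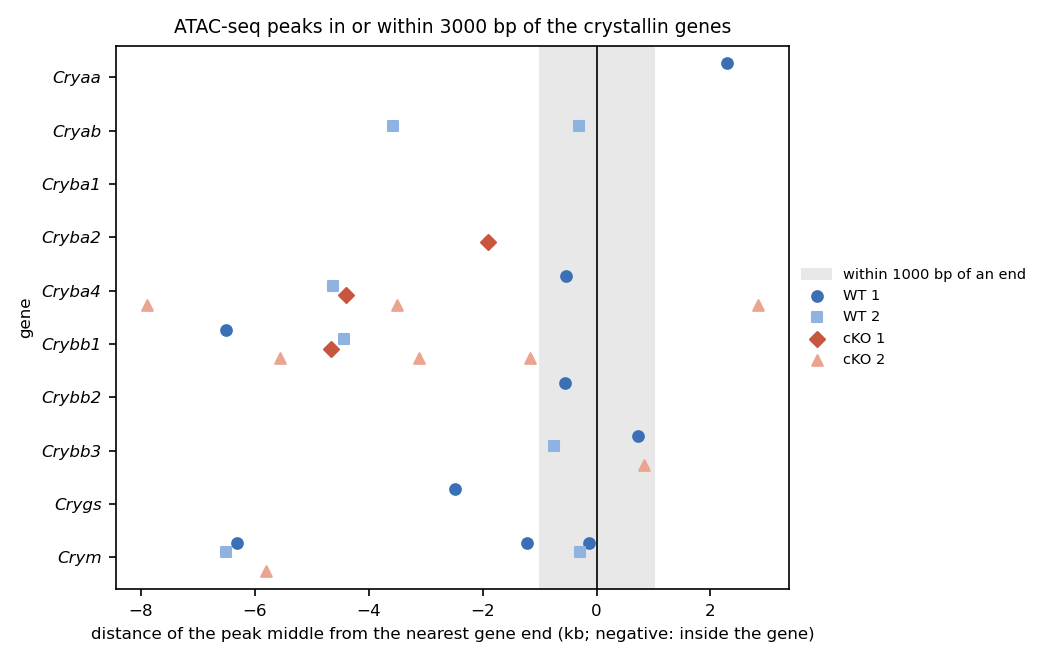
Distance of the middle of each ATAC-seq peak from the nearest end of the crystallin gene it lies in or near (x axis, kb, negative inside the gene), for 2 WT libraries (blue) and 2 cKO libraries (red), with the 1000 bp on each side of an end in grey. *Crym* has a peak close to an end in both WT libraries and in neither cKO library, *Cryba1* has none, and peaks in *Cryba4* and *Crybb1* are shared where the genes overlap.

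A pair of peaks reached into the stretch before a RefSeq start. A peak of cKO replicate 2 (chr5:112255605-112255850) covered 215 of the 250 bases before the start of *Crybb1* (chr5:112255570-112255819, plus strand), TATA box and half-site included, although it lies just over 1000 bp from the end of the longest form of the gene. A peak of WT replicate 2 (chr5:113081363-113081632) covered the 48 bases next to the start of *Crybb3* (chr5:113081585-113081834, minus strand). They are shown because an accessible stretch of a crystallin start was called there, and here capitals mark the bases inside the peak.
Crybb1: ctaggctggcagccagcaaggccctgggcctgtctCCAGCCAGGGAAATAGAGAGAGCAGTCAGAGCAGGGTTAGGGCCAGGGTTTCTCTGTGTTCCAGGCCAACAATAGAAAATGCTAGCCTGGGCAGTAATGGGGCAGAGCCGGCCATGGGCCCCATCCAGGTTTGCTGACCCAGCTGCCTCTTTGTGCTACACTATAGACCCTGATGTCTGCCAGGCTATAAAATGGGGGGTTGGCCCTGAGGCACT
Crybb3: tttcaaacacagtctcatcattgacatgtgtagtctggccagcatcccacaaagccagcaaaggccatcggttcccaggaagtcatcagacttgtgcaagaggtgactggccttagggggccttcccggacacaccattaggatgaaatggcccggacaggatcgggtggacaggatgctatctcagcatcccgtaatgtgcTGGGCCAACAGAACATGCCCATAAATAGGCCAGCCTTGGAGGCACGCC

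Each of these 2 peaks was called in 1 library of its label and not in the other. *Crybb1* RNA was at 0.754 to 2.74 TPM under cKO and 1.04 to 2.19 TPM under WT, and *Crybb3* RNA is given above, both with overlapping labels. The remaining cell type lists gave counts at an unadjusted p under 0.05 of 8 higher of 10 cone markers, 3 higher of 9 amacrine cell markers tested, 3 higher of 11 RGC markers, 1 lower of 3 astrocyte markers and 1 lower of 7 endothelial cell and pericyte markers. None of the 8 bipolar cell, 1 horizontal cell, 2 retinal pigment epithelium and 5 erythrocyte markers tested passed at that p with limma. Over all genes tested, 11.9% were higher and 6.45% lower at that p. With the replicate block in limma the counts rose to 3 higher of the bipolar cell markers and 1 higher of the horizontal cell markers. For endothelial cells and pericytes they rose to 3 lower, and the lens list had 1 higher and 1 lower. The shares over all genes tested rose too, to 13.4% higher and 8.52% lower.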

How the data were processed

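There were 6 RNA-seq libraries (3 of each label, WT and cKO) and 4 ATAC-seq libraries (2 of each), grouped by their titles. The authors trimmed reads with Trimmomatic, quantified transcripts with Salmon 1.0.0 on GENCODE (GRCm38), made gene sums with tximport and deposited them as TPM, a unit without depth. ATAC-seq reads were aligned with Bowtie2 2.3.5.1, and the submitters' notes name MACS2 2.2.5. The authors deposited peak positions per library and, from DiffBind, log2 group values of mean normalized reads per region. The authors' deposited fold changes, p-values and FDR (from DESeq2 1.26.0 for RNA-seq and DiffBind for ATAC-seq) were not used.

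Genes at 1 TPM or more in at least 3 of 6 libraries were kept. Their log2(TPM + 1) was compared with limma 3.58.1 in R 4.3.3 (moderated by empirical Bayes, trend allowed), and p-values were adjusted by Benjamini-Hochberg over all 17555 genes, the threshold being 0.05. limma replaced the count test of the authors because the table holds TPM. The fit was tested on simulated data. Single values were compared with exact two-sided permutation tests. Peaks and regions counted as being at a gene when they lay within 1000 bp of either end in RefSeq's table on GRCm38.p6, which gives no strand, and a shared peak overlapped by at least 1 bp. Starts were written from 1. Motifs were searched in the 250 bases before each RefSeq start. Other steps used Python 3.11.15, numpy 2.4.6, pandas 2.3.3, scipy 1.17.1 and matplotlib 3.10.9.

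Same-numbered RNA-seq libraries deviated together from their group means (r = 0.334, 0.101 and 0.425 over all genes tested). Of the pairs with unlike numbers, WT replicate 1 with cKO replicate 2 was at 0.193, and the rest were negative, down to −0.386. The pairing is thus no more than a hint from the data. The labels do not say what a number shares, and the block was run as an alternative. The members, the lists (crystallin-named genes, small heat shock proteins, crystallin regulators, thyroid hormone handling and cell type markers) and the tests were chosen with earlier results of these data known. Genes named in the text are all members, *Arid1a*, in each other list the 3 with the highest mean TPM and up to 3 with the largest change at an unadjusted p under 0.05, in marker lists the 2 with the highest mean TPM, and the 5 most like *Crym* or the summed members. Some genes that this rule takes are not reported here. Other named genes were chosen after their values were seen: *Pou4f2*, *Rbpms*, *Mip*, *Crygb*, *Crygc*, *Crygn*, *Cryga*, *Cryzl2*, *Cryl1*, *Crybg2*, *Crybg3*, *Gfap*, *Pecam1*, *Lgsn*, *Dnase2b*, *Pitx3* and *Maf*.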

Additional observations from a re-analysis of the deposited data

How the results depend on the processing

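The RNA results were recomputed with 0.1 as pseudocount, without the filter, with a filter on mean TPM (5 or more), after median-of-ratios scaling, with a replicate block, with limma without a trend, with each library left out, and in 2 sets of 3 libraries chosen after seeing the data by their *Cryaa* and *Cryba1*. No crystallin passed at an adjusted p under 0.05 under any of them. *Crym* had a negative log2 fold change in all 14 alternatives (−1.53 to −0.84), a sign that labels without overlap fix in most of them. Where each label kept at least 2 libraries, the adjusted p of *Crym* from limma was 0.0883 to 0.494. *Crybb3* was positive in all 14. *Cryba2*, *Crybb2* and *Crygs* were positive in the 12 that gave them a value. They were above 0 only in WT replicate 1 and cKO replicates 1 and 2, so that sign rests on those libraries. The count of crystallins at an unadjusted p under 0.05, 1 as reported, was 2 with the replicate block and 2 without a trend, with *Crybb3* joining in both, and ranged from 1 to 4 with libraries left out in turn (2 without WT replicate 2 and 4 without cKO replicate 3). Over all genes tested, 21.9% passed at that p with the block, 18.5% without a trend, 19.6% without WT replicate 2 and 20.4% without cKO replicate 3. The replicate block changed no other call of a member.

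The log2 fold change of *Cryab* turned to −0.14 after scaling and ranged from −0.50 to 0.47 with libraries left out. Among WT replicates 2 and 3 and cKO replicate 3 alone, where *Cryaa* and *Cryba1* are lowest by choice, *Cryab* was at −0.68, *Cryaa* at −0.89, *Cryba1* at −0.60 and *Cryba4* at 0.015. In the other set, WT replicate 1 and cKO replicates 1 and 2, these genes were at 0.13, 0.68, 0.62 and −0.30 in that order. Each set leaves 1 library in a label and was chosen by *Cryaa* and *Cryba1*, so it is no check on them. *Crybb1* ranged from −0.48 to 0.068 with libraries left out. The difference of the log2 ratio of *Crym* to *Cryab* ranged from −1.93 to −0.65 in the same way. With a fall of 2 or more on the log2 scale, 0 regions at crystallin ends were lower under cKO, in place of 1. Widening the window to 3000 bp left 1 member with a region, and asking a peak to cover 50% of the region at *Crym* left 2 libraries. For ATAC-seq, no paired analysis was possible because each label has 1 value per region. The cause of these changes was not tested. Depth is unknown for every value, 3 libraries a label cannot give an exact p under 0.1, and gene ends were used in place of transcription starts for regions and peaks.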

Other observations

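Beyond crystallins, the genes whose log2 level over the 6 libraries was most like that of *Cryaa* were mainly predicted genes and a pseudogene, picked after the data were seen. *Gm17060*, *Gapdh-ps14*, *Gm5962* and *Gm6789* each had a Pearson's r of 0.997 or just under it over 6 libraries, and *Cryba1*, the next, had 0.996. *Gm6789* was at 15.8, 1.38 and 0.185 TPM in the WT libraries and at 16.1, 37.8 and 0.118 TPM in the cKO libraries. *Gapdh-ps14* was listed at 3.77, 0.811 and 0 TPM and at 3.82, 9.29 and 0 TPM in the same order. All 4 were high in WT replicate 1 and cKO replicates 1 and 2, as *Cryaa* was, and these are descriptions with no test.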
